A study of Homo sapiens with 3 samples.

Results

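The 4 gene names of the ribosomal RNA transcription unit, RNA45S5, RNA28S5, RNA18S5 and RNA5-8S5, were examined in 3 RNA sequencing libraries of HEK293. They were taken by name, though with earlier results of these data known, and are 4 of the 26485 names in the count tables. HEK293 is a human cell line that was established from embryonic kidney cells with sheared adenovirus DNA, and it was grown here in DMEM with fetal calf serum. The series holds 1 condition in triplicate, with no treatment and no control, so the 3 libraries formed 1 group (n = 3). Per the labels' protocols, Ribo-Zero reagents were used to deplete ribosomal RNA from total RNA before directional library preparation, whereas the sample titles call the libraries mRNA sequencing. Nothing in the labels ties the replicates to separate cultures, so spreads and p-values describe these 3 samples and may be technical.

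Ribosomal RNA is made in the nucleolus, where RNA polymerase I copies tandem repeats of ribosomal DNA into a long precursor. Cleavage removes the external and internal transcribed spacers and leaves the 18S rRNA of the small subunit and the 5.8S and 28S rRNAs of the large subunit, while 5S rRNA is made elsewhere by RNA polymerase III. The precursor is short-lived, and the mature rRNAs make up most of the RNA of a cell. Kits that deplete rRNA target the mature sequences.

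The mature rRNA names are nested within the precursor name in RefSeq annotation, which need not be the annotation used for counting. In RefSeq annotation of GRCh38, RNA45S5 is an older symbol of 2 of 5 precursor genes, which are 13309 to 13373 bp long. One complete copy runs from 105424 to 118780 on an unplaced scaffold and is 13357 bp long. Its 18S segment (1869 bp) spans 109078 to 110946, its 5.8S segment (157 bp) spans 112024 to 112180 and its 28S segment (5070 bp) spans 113348 to 118417. These exonic segments cover 53.1% of the unit, and the spacers cover the other 6261 bp: 3654 bp before 18S, 1077 bp and 1167 bp on either side of 5.8S, and 363 bp after 28S. GENCODE release 29 places 1 gene within this interval and none on the minus strand. The counter named in the submitters' processing notes, HTSeq, in its usual mode sets a read aside as ambiguous when it lies in features of more than 1 name, and does not count reads with several alignments. With this layout and mode RNA28S5 would receive no count, yet it had 152 over the 3 libraries. The annotation, mode or copy behind the counts thus differs in some way from this account, and the labels name no annotation. Counts under RNA45S5 and RNA28S5 are therefore uncertain as measures of these RNAs, both because the names overlap and because the repeats share sequence.

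**Figure D1:**
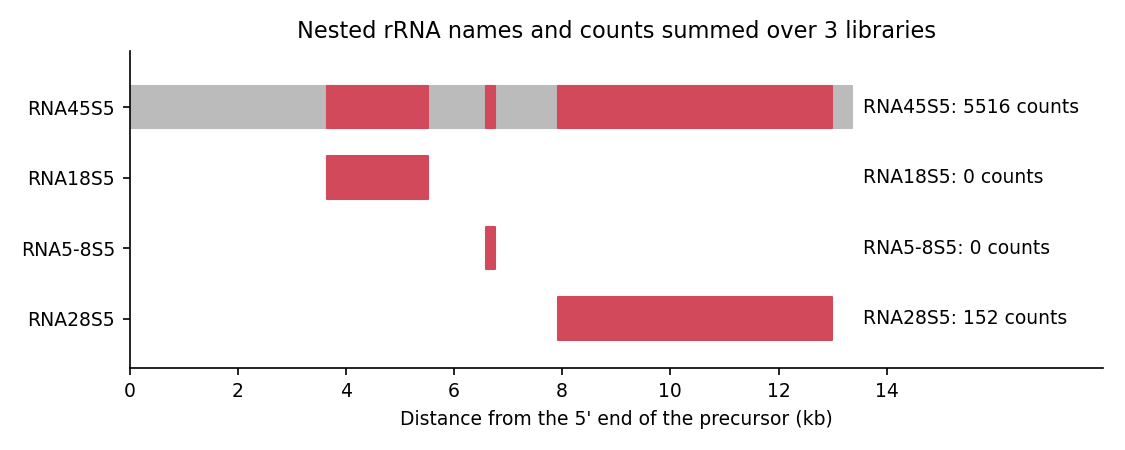
Map of 1 rDNA unit in RefSeq annotation of GRCh38, with distance from the 5′ end of the precursor in kb on the x axis; grey marks transcribed spacer and red marks mature rRNA. The counts summed over 3 libraries are 5516 for RNA45S5 and 152 for RNA28S5, and the names of 18S and 5.8S rRNA have 0. The annotation used for counting is not given and may differ from this map.

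The sequence of 5.8S rRNA is shown because its name received no count in any library. GENCODE lists 8 genes of 5.8S rRNA, 4 on chromosome 21 and 4 on scaffolds, and the 4 with a transcript sequence were identical over 153 bases. The copy shown lies on the plus strand of chromosome 21 from 8212572 to 8212724 (GRCh38), and capitals mark the 10 bases at which the most similar of 5 annotated 5.8S pseudogenes, RNA5-8SP6, differs from it.
5.8S rRNA: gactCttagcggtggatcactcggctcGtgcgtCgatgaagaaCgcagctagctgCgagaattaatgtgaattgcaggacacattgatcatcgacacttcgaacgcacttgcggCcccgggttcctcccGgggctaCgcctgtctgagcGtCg
RNA5-8SP6 was 93.5% identical to 5.8S rRNA, with a longest identical run of 58 bases.

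The libraries had few gene-assigned counts and 1 of them stood apart. Gene-assigned totals ranged from 289241 to 483114, which was 2.02% ± 0.396 (SD, n = 3) of all records. All records numbered 22546282, 19512534 and 16459392 in replicates 1, 2 and 3. Most of them, 20436963, 17854147 and 15046765 in the same order, were assigned to no feature. Counts were scaled to counts per 1000000 (CPM) of the library size after TMM scaling, so that 1 count equalled 2.29 to 3.30 CPM. A minimum of 10 counts in each library was met by 2564 genes. Replicate 2 differed most from the others: the biological coefficient of variation was 0.177 for replicates 1 and 3 but 0.314 and 0.294 for the pairs with replicate 2. TSIX, the most abundant name, took 17.1% to 17.9% of gene-assigned counts in replicates 1 and 3 and 28.5% in replicate 2. Of the 9 HEK293 markers examined, 8 had a count, PAX2 had none, and their summed counts ran from 86 to 154. Several were weak: KRT18 and NEFM had 1 count in all, and VIM had 26, 10 and 9 where VIM-AS1 on the other strand had 1218, 563 and 745. Exons of 7 of the 9 overlap an exon on the other strand. All 10 blood, liver and fibroblast markers were at 0 in every library.

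RNA45S5, the precursor, was the most abundant rRNA name and was low in 1 library. It received 2615, 1065 and 1836 counts in replicates 1, 2 and 3. On the CPM scale its levels were 5978, 2455 and 6051 in the same order. Replicates 1 and 3 were thus close together and replicate 2 was 2.43-fold below replicate 1 and 2.47-fold below replicate 3. Its share of gene-assigned counts was 0.635% in replicate 1 (95% Wilson interval 0.611% to 0.659%), 0.220% in replicate 2 (0.208% to 0.234%) and 0.635% in replicate 3 (0.606% to 0.664%). Scaled to 1000000 records of the table, gene-assigned or not, it received 116, 54.6 and 112 counts, so replicate 2 was low on this scale too. These intervals cover counting error alone.

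The mean level of RNA45S5 was 4828 ± 2055 CPM (SD, n = 3), which placed it at rank 8 of all names. Its rank in replicates 1, 2 and 3 was 4, 31 and 5. The next name above it, SNX22, had 5386 ± 702 CPM, and the next below, UGDH-AS1, had 4825 ± 1568 CPM (SD, n = 3 each). Neither neighbour differed from it by more than the spread between libraries, and each exceeded it in 1 library, replicate 2. Exons of both neighbours overlap an exon on the other strand, of PPIB and of UGDH. Among the 16800 matched names without such an overlap in GENCODE, only HBS1L, a translation quality control factor, lay above the precursor, at 7340 ± 1762 CPM, and the next, LINC00504, lay at 2074 ± 642 CPM (SD, n = 3 each). How the counter treated strand is not given in the labels, so counts under RNA45S5 cannot be assigned to one strand of the repeat. The same limit holds for every other name reported here, and the strand of the counted reads was not tested.

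RNA28S5, the name of the 28S rRNA of the large subunit, was far lower and was high in a different library. It received 97, 32 and 23 counts in replicates 1, 2 and 3, or 222, 73.8 and 75.8 CPM. Replicate 1 was 3.01-fold above replicate 2 and 2.92-fold above replicate 3, while replicates 2 and 3 were alike. The mean was 124 ± 84.8 CPM (SD, n = 3), at place 1147 of all names. Replicate 2 thus stood apart for the precursor, and replicate 1 for 28S.

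RNA18S5, the name of the small-subunit rRNA, and RNA5-8S5, the name of the short rRNA of the large subunit, had 0 counts in all 3 libraries. A count of 0 allows up to 3 counts, or 6.86, 6.92 and 9.89 CPM in replicates 1, 2 and 3. The order of these names between themselves cannot be read. RNA18S5 and RNA5-8S5 received no count under their own names, which does not show that the RNAs were absent. If reads shared with RNA45S5 were set aside, these names would stay at 0 at any depth. The limit of 3 counts covers counting error alone.

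**Figure D2:**
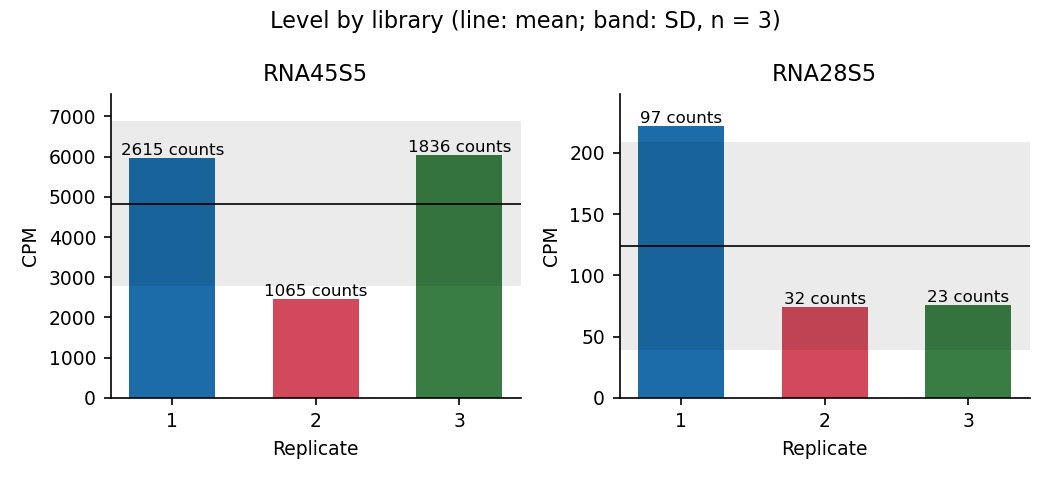
Level in CPM (y axis, from 0) of RNA45S5 and RNA28S5 in each replicate (x axis), with raw counts above the bars, the mean as a line and the SD (n = 3) as a band. RNA45S5 is lowest in replicate 2, at 2455 CPM, and RNA28S5 is highest in replicate 1, at 222 CPM.

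Per length, RNA45S5 again had more assigned counts than RNA28S5. It had 361 ± 154 CPM per kb of the whole unit and 771 ± 328 CPM per kb of spacer, the part that no mature name covers (SD, n = 3 each). RNA28S5 had 24.4 ± 16.7 CPM per kb (SD, n = 3). The level of RNA45S5 per kb of the whole unit was 10.2, 12.6 and 30.3 times that of RNA28S5 in replicates 1, 2 and 3. RNA28S5, RNA18S5 and RNA5-8S5 all lie wholly within RNA45S5 in RefSeq annotation, and HTSeq in its usual mode would set aside reads shared between names. The folds over RNA28S5 and the following folds thus compare assigned counts and set no limit on the RNAs themselves. Against the 3-count limit in each library, RNA45S5 had at least 122-fold, 49.7-fold and 85.6-fold more counts per kb than RNA18S5. Because RNA5-8S5 is short, the same limit gave RNA45S5 at least 10.2-fold, 4.17-fold and 7.19-fold more counts per kb than RNA5-8S5. That limit for RNA5-8S5 was 43.7, 44.05 and 63.0 CPM per kb, where RNA28S5 had 43.7, 14.5 and 14.95, so RNA28S5 and RNA5-8S5 could not be ordered per length. Among 2391 tested names with a length in GENCODE, 101 lay above RNA45S5 per kb and 1186 lay above RNA28S5.

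The ratio of counts under RNA28S5 to counts under RNA45S5 was lowest in replicate 3. RNA28S5 had 3.71 counts per 100 of RNA45S5 in replicate 1, 3.00 in replicate 2 and 1.25 in replicate 3, with a mean of 2.66 ± 1.26 (SD, n = 3). As a share of the counts of both names, RNA28S5 held 3.58% in replicate 1 (95% Clopper-Pearson interval 2.91% to 4.35%), 2.92% in replicate 2 (2.00% to 4.09%) and 1.24% in replicate 3 (0.786% to 1.85%). The interval of replicate 3 lay below both others, and those of replicates 1 and 2 overlapped. These intervals treat reads as independent and leave out the spread between samples, and the 28S counts behind them are few. This ratio is taken within a library and does not depend on the scaling. It leaves out reads set aside as ambiguous or aligned to several places. It therefore compares assigned counts and does not measure the balance of the RNAs.

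Both names with counts varied by more than counting noise. A model with an intercept and no dispersion, fitted in edgeR over the 2564 genes, called 45.8% of them at an adjusted p under 0.05, so a call by itself does not set a name apart. RNA45S5 had an adjusted p of 5.13e-174 and RNA28S5 had an adjusted p of 4.62e-09 in this edgeR test. The coefficient of variation beyond counting noise was 0.425 for RNA45S5 and 0.671 for RNA28S5. With replicates 1 and 3 alone, edgeR gave RNA45S5 an adjusted p of 0.854 with a log2 difference of 0.02, and RNA28S5 an adjusted p of 3.80e-05 with replicate 3 lower by a log2 difference of -1.55. In that pair 9.45% of 2784 genes were called. With replicates 2 and 3 alone, where 28.9% of 2723 genes were called, edgeR gave RNA28S5 an adjusted p of 0.955. The call of RNA45S5 was thus lost without replicate 2 and that of RNA28S5 without replicate 1. With the dispersion between these libraries in the model, edgeR called 0 of 2564 genes, and 104 had an unadjusted p under 0.05.

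The log2 CPM of replicate 2 minus the average of the other libraries was -1.29 for RNA45S5 and -0.81 for RNA28S5, where the median of all 2564 tested genes was 0.03. Scaling by total counts moved that median to -0.21 and the difference of RNA45S5 to -1.53 and of RNA28S5 to -1.05, and DESeq2 size factors moved it to 0.10, with -1.22 and -0.74. With TSIX left out the differences were -1.30 and -0.82. Those of RNA28S5 reflect a high replicate 1, as its replicates 2 and 3 were alike after TMM scaling, at 73.8 and 75.8 CPM. The part of TSIX and of the gene-assigned total of replicate 2 in these differences was otherwise not tested. Records aligned to more than 1 place made up 7.51%, 6.0% and 6.81% of all records in replicates 1, 2 and 3, lowest where RNA45S5 was lowest. They outnumbered RNA45S5 counts 647, 1100 and 610 times in the same order, and their part in the result was not tested. Ambiguous reads of the whole table numbered 4207, 3564 and 3010, or 1.61, 3.35 and 1.64 per RNA45S5 count, and these include any uniquely aligned reads set aside between the nested rRNA names.

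Among the 432 names that reached 100 counts in each library, 1 lay further below in replicate 2 than RNA45S5, and so did 60 of all 2564 tested. The former was RN7SL1, an RNA of the signal recognition particle, chosen after its values were seen, with 558, 106 and 217 counts and a log2 difference of -1.97. RN7SL1 has near-identical copies, and its counts are uncertain. The names most like RNA45S5 over the 3 libraries were found by the largest gap between their log2 CPM, each relative to its own mean. They were ANAPC11, a subunit of the anaphase-promoting complex, with a gap of 0.08, the antisense RNA STARD7-AS1 with 0.10, NCAPH2, a condensin II subunit, with 0.12, CENPN, a centromere protein, with 0.18, and TUBGCP2, a gamma-tubulin complex protein, with 0.19. The median gap of all these names was 0.81. ANAPC11 had 410, 167 and 264 counts, so it too was low in replicate 2 and alike in the other libraries on the CPM scale, at 937, 385 and 870 CPM. With 3 libraries this likeness is a description. Exons of ANAPC11, STARD7-AS1, CENPN and TUBGCP2 overlap exons on the other strand, and NCAPH2 has no such overlap.

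**Figure D3:**
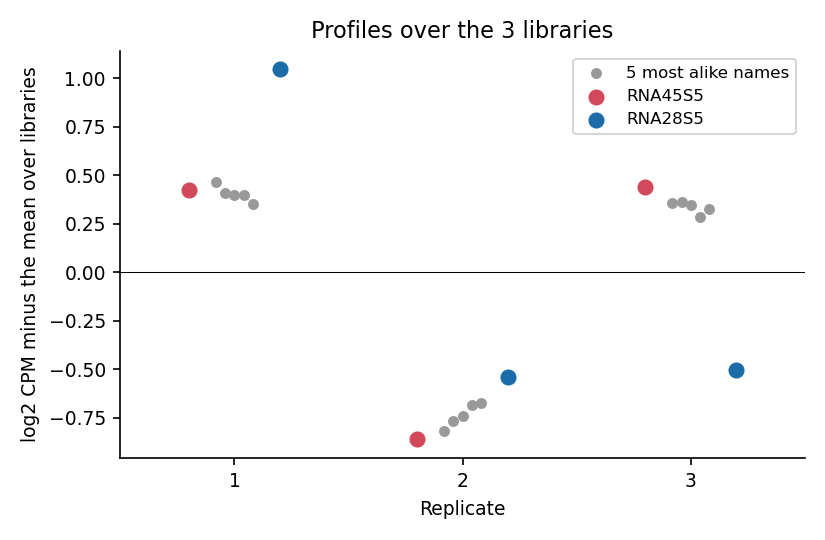
Level of each name in each replicate (x axis) as log2 CPM minus its own mean over the 3 libraries (y axis), for RNA45S5 (red), RNA28S5 (blue) and the 5 names most like RNA45S5 (grey). RNA45S5 and the grey points are below their means in replicate 2 alone, whereas RNA28S5 is above its mean in replicate 1 alone.

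Other names that annotate rDNA or rRNA added little. The tables held 9 further names listed for rDNA, 8 of them microRNAs, and all had 0 counts in every library. MIR3648-1 lies inside the precursor gene RNA45SN2, 2485 bp from its start, and MIR6724-1 lies 581 bp before the same gene. All 17 names of 5S rRNA were at 0 as well. Nuclear sequences that resemble the large mitochondrial rRNA had 57, 70 and 10 counts over 10 names, or 130, 161 and 33.0 CPM. Their sum was thus lowest in replicate 3, whereas RNA45S5 was lowest in replicate 2. None of these names reached 10 counts in every library, so none was tested. MTRNR2L3 led them with 36, 45 and 3 counts, followed by MTRNR2L5 with 10, 17 and 3 and MTRNR2L2 with 4, 8 and 1. MTRNR2L4, MTRNR2L8, MTRNR2L9 and MTRNR2L10 had 1 to 5 counts in all. These copies resemble one another, their counts are uncertain, and the mitochondrial rRNA genes themselves were not analysed here.

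Names of genes that make and process rRNA had low counts, and those that varied were lowest in replicate 2. Because strand handling is not given and few records were gene-assigned, these counts do not show how strongly the genes were expressed. Of 177 names on 8 lists, 138 had a count and 24 had at least 10 in every library. Of these 24, 8 had an adjusted p under 0.05 in edgeR, or 33.3%, below the 45.8% of all tested genes. Replicate 2 was lowest in all 8 and highest in none. Over all tested genes, 17.0% were called with replicate 2 lowest, and among the 1175 called it was lowest in 435 and highest in 579. Including the genes without a call, replicate 2 was lowest in 14 of 24 and highest in 5, where it was lowest in 944 and highest in 1031 of all 2564. The median log2 difference of replicate 2 from replicates 1 and 3 was -0.21 over the 24 and 0.03 over all tested genes. Without replicate 2, 1 of 25 tested members was called, RPL11, where 9.45% of all tested genes were.

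**Figure D4:**
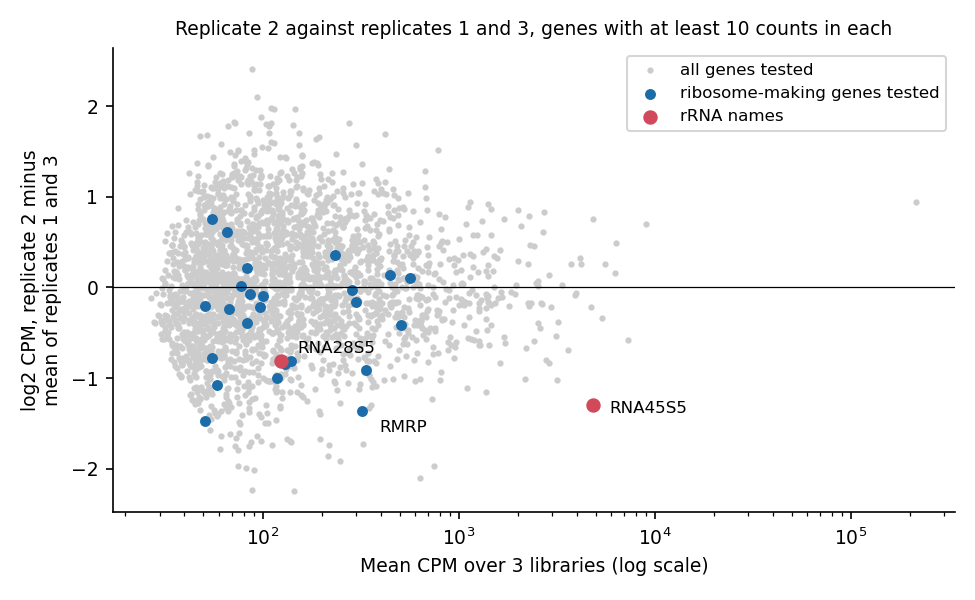
Each point is a gene with at least 10 counts in every library, with its mean CPM on a log x axis and the log2 CPM of replicate 2 minus the mean of replicates 1 and 3 on the y axis. RNA45S5 lies at -1.29 and RMRP at -1.37, and the 24 ribosome-making genes (blue) have a median of -0.21 against 0.03 for all genes (grey).

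In the transcription machinery, CD3EAP, a subunit of RNA polymerase I, led with 79, 40 and 44 counts (139 ± 44.5 CPM; SD, n = 3). It was called (edgeR adjusted p = 0.00549) and was lowest in replicate 2, but 1651 bp of its exons overlap exons on the other strand, mostly of the DNA repair gene ERCC1. Counts of ERCC1 were 254, 254 and 177. POLR1B, another subunit, had 22, 2 and 12 counts, and UBTF, the upstream binding factor of rDNA, had 5, 14 and 2. Neither reached 10 counts in every library. Of 22 names of this list, 5 had no count.

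Among factors of the small subunit, which leads to 18S rRNA, 4 of 44 were tested and 2 were called. DCAF13 had 242, 182 and 170 counts, with a log2 difference in replicate 2 of -0.41 (edgeR adjusted p = 0.0157). Its exons overlap 406 bp of SLC25A32 on the other strand, which had 26, 23 and 20 counts. UTP18 had 69, 37 and 45 counts, with a difference of -0.84 (edgeR adjusted p = 0.0134), and has no exon on the other strand. TSR1, a late assembly factor, had 114, 122 and 96 counts and did not pass (edgeR adjusted p = 0.476). Of its exons, 1156 bp overlap exons on the other strand, mostly of SRR, which had 919, 901 and 787 counts.

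Among factors of the large subunit, which leads to 28S and 5.8S rRNA, 8 of 43 were tested and 1 was called. This was NOC2L, with 66, 31 and 41 counts and a log2 difference of -1.0 (edgeR adjusted p = 0.00380), whose exons overlap those of SAMD11. On the other strand, SAMD11 had 199, 94 and 142 counts. NSA2 had 141, 120 and 90 counts and RPF1 had 44, 36 and 23, and neither passed. Of the exons of NSA2, 2913 bp overlap exons on the other strand, mostly of FAM169A, which had 139, 195 and 113 counts. The proteins listed for small nucleolar RNPs, which guide rRNA modification, were too low to test: NOP58 led with 10, 9 and 2 counts, ahead of NHP2 with 9, 5 and 4 and NOLC1 with 10, 0 and 1.

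RNAs of pre-rRNA cleavage were led by RMRP, the RNA of RNase MRP, which cuts the internal spacer between 18S and 5.8S. RMRP had 195, 68 and 111 counts, or 446, 157 and 366 CPM. It was lowest in replicate 2 with a log2 difference of -1.37 (edgeR adjusted p = 1.68e-13), and no annotated exon lies opposite it. SNORD3A, the U3 RNA that pairs with the precursor, had 12, 0 and 1 counts, SNORA73A had 7, 2 and 0, and the other 13 of 16 names had none. RMRP alone of these RNAs could be tested.

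Of the nucleases that trim the precursor and its spacers, 5 of 30 were tested and 1 was called. EXOSC9, a core subunit of the RNA exosome, had 219, 258 and 185 counts, DIS3, a catalytic subunit, had 180, 205 and 137, and SKIV2L2, the exosome helicase, had 39, 38 and 35. None of these passed, with edgeR adjusted p-values of 0.140, 0.487 and 0.532. EXOSC8, another core subunit, was called with 22, 14 and 28 counts (edgeR adjusted p = 0.0106). Its exons overlap 302 bp of SUPT20H on the other strand, which had 95, 81 and 61 counts. All 5 tested members have exons that overlap another gene, EXOSC9 with 254 bp of the cyclin gene CCNA2 and DIS3 mostly with BORA.

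The proteins that carry 5S rRNA into the large subunit were both lowest in replicate 2. RPL11 had 131, 90 and 153 counts, with a log2 difference of -0.91 (edgeR adjusted p = 8.07e-10), and RPL5 had 34, 10 and 16 counts, with a difference of -1.47 (edgeR adjusted p = 0.00384). Exons of RPL5 overlap 273 bp of FAM69A on the other strand, which had 257, 337 and 223 counts. RPL11 also differed between replicates 1 and 3, at 299 and 504 CPM (edgeR adjusted p = 0.000603 in that pair). GTF3A, the transcription factor of 5S genes, had 54, 41 and 25 counts and did not pass (edgeR adjusted p = 0.277). Of the list of nucleolar proteins, NPM1, an abundant nucleolar protein, had 84, 119 and 72 counts and did not pass. NUMA1, which is known as a protein of the nuclear matrix and spindle poles and not as a ribosome-making factor, was the other tested member of that list and had 35, 26 and 19 counts without passing.

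**Figure D5:**
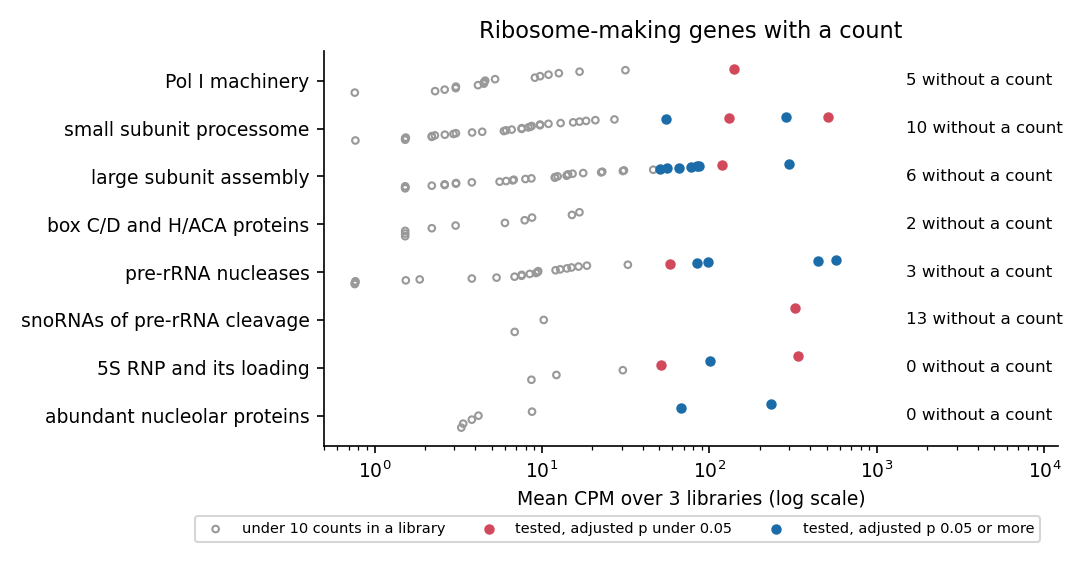
Mean CPM over 3 libraries (log x axis) of each ribosome-making gene with a count, by list (y axis), with the number of list members without a count at the right. Red points passed the test, blue points did not, and open points had under 10 counts in a library; 8 of the 24 tested genes are red, including RMRP and RPL11.

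Many of these names share exons with an opposite-strand gene. Such overlap was present for 17 of the 24 tested members and for 78 of all 177, or 70.8% and 44.1%. The shares over all names matched to GENCODE were 70.7% of those tested and 31.8% of all 24620. The called members without it were RMRP, RPL11 and UTP18. The summed level of all 177 names was 5692, 4631 and 5626 CPM in replicates 1, 2 and 3, so that RNA45S5 alone stood at 1.05, 0.530 and 1.08 times their sum.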

How the data were processed

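The deposited tables hold raw whole-number counts per gene name, 1 table per library, followed by 5 summary lines of the counter. Per the submitters' processing notes, the authors used HTSeq 0.11.2, TopHat2 (2.2.5 as written there), Trimmomatic and the hg38 build; no label names the annotation, strand option or filters. The 5 summary lines entered neither library sizes nor tests; ambiguous reads were 0.0183% to 0.0187% of all records.

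Library sizes were scaled by TMM in edgeR 4.0.16 (R 4.3.3) to give CPM. Variation between libraries was tested where each library had 10 counts or more: edgeR fitted 1 mean per gene with the dispersion set to 0, its deviance was referred to chi-square, and Benjamini-Hochberg adjustment ran over all tested genes. The fit was run on simulated counts with counting noise alone and some genes changed. That setting has no dispersion, so it does not show how the fit behaves with the spread between these libraries. Intervals came from scipy 1.17.1. Lengths, coordinates and names came from RefSeq (GRCh38.p14) and GENCODE 29, to which 24620 names (93.0%) were matched, 720 of them through another symbol; the 5.8S sequence is a GENCODE transcript, and pseudogenes were aligned with Biopython 1.88.

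The members and the gene lists were chosen with earlier results of these data known. Genes named were the 4 members; every other rDNA, 5S or mitochondrial rRNA-like name with a count; for each of 8 ribosome-making lists the 3 highest by mean CPM and up to 3 called with the largest excess coefficient of variation; the neighbours of RNA45S5 in rank; and the 5 names closest to it in profile among those with at least 100 counts in every library. Alternatives were total counts or DESeq2 1.42.0 size factors, TSIX left out, a negative binomial null, Pearson's statistic, all genes with a count, and leaving out each replicate.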

Additional observations from a re-analysis of the deposited data

How the results depend on the processing

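The mean levels of RNA45S5 and RNA28S5 and their ratio stayed within 1 SD of the reported value under every alternative run on them. For the ratio the only alternative was leaving out each replicate, which cannot move a mean of 3 values by 1 SD. That outcome therefore says nothing about the stability of the ratio, and for the levels leaving out a replicate was a weak check. Leaving out each replicate, RNA45S5 ranged from 4063 to 6347 CPM, RNA28S5 from 72.6 to 157 CPM and RNA28S5 per 100 RNA45S5 counts from 2.13 to 3.36. The adjusted p of RNA45S5 in edgeR ranged from 1.11e-124 to 0.854 and was lost without replicate 2; that of RNA28S5 ranged from 7.50e-07 to 0.955 and was lost without replicate 1. With a negative binomial null they were 0.889 and 0.999, and 0 of 2564 genes were called, with 104 at an unadjusted p under 0.05; this dispersion is estimated from the same 3 libraries. The number of ribosome-making genes that varied was 8, and leaving out each replicate gave 1 to 7, with 1 without replicate 2. It was 33 of 138 (23.9%) with no count filter, where 20.1% of 14482 genes were called, and 0 with the negative binomial null. It was 3 of the 7 tested members with no opposite-strand exon (42.9%, with 45.8% over all tested genes), an alternative chosen after seeing the data. Total counts, DESeq2 size factors, the Pearson statistic and leaving out TSIX gave 8 or 9. No paired analysis was possible because the series has 1 group. At 289241 to 483114 gene-assigned counts per library, names with few counts could not be compared.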
